A study of Sus scrofa with 24 samples.

Results

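The 9 genes described here encode the calcium sensor calmodulin and proteins that bind it: CALM2 and CALM3, the 4 subunits of the calmodulin-dependent kinase CaMKII (CAMK2A, CAMK2B, CAMK2D, CAMK2G), the nuclear kinase gene CAMK4, the calmodulin-binding protein neurogranin (NRGN) and the catalytic subunit A alpha of the phosphatase calcineurin (PPP3CA). They were picked by gene symbol among the 38882 genes listed for each library, and all 9 were among the 16326 genes with at least 1 CPM (counts scaled to the library total) in at least 3 libraries. CALM3 and CAMK2A led to the choice because they had been higher in small piglets in these libraries, so all differences of the 9 genes by birth size, and which of them lay past a threshold for size, describe the values behind the choice and support nothing. Differences by diet, sex and cohort were not used in the choice.

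The libraries were poly(A) RNA of the hippocampus of 24 piglets of 14 days, from PIC Camborough dams and PIC 359 sires. The piglets were 12 pairs of littermates of the same sex, each pair called a litter here. Each held 1 small for gestational age (SGA) piglet and 1 appropriate for gestational age (AGA) piglet. Both piglets of 6 litters received a control formula (CON) with triglyceride oils. Those of the other 6 received a hydrolyzed fat formula (HF) with soy free fatty acids, monoacylglycerol palmitate, lecithin and added cholesterol. Each of the 4 combinations of size and formula thus held 6 piglets. Replicates 1 to 3 of each group came in the first cohort and replicates 4 to 6 in the second, and 6 litters were male and 6 female.

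In an excitatory neuron, calcium that enters through synaptic receptors is bound by calmodulin, and calcium-loaded calmodulin then switches on its target enzymes. CaMKII, a large holoenzyme of alpha, beta, gamma and delta subunits, phosphorylates synaptic proteins and is needed for long-term potentiation in the hippocampus, while calcineurin removes phosphate and is tied to long-term depression. Neurogranin holds calmodulin in its calcium-free state in dendritic spines, and CaM kinase IV passes the signal on to transcription in the nucleus.

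Total counts per library were between 6017336 and 9284355 with a median of 7346072. Hippocampal and neuronal markers were present in every library, with SLC17A7, the vesicular glutamate transporter of excitatory neurons, at 1577 to 4956 CPM and PROX1, a marker of dentate granule neurons, at 37.1 to 64.3 CPM, while CALB1 was at 0 in 3 libraries. Growth hormone (GH1), a pituitary gene, reached 306 CPM in SGA HF replicate 4 and was at 0 in 13 libraries. In the sum of excitatory neuron markers 3 libraries stood apart. AGA CON replicate 2 and AGA HF replicate 4 had the lowest sums (1969 and 2530 CPM) and SGA CON replicate 6 the highest (5681 CPM). In the sum of markers of any neuron these AGA libraries were also lowest (2222 and 2493 CPM). SGA CON replicate 6 ranked 8 from the highest of 24 there (4066 CPM). In AGA CON replicate 2 the sums of astrocyte, microglia and endothelial markers were the highest of all 24 libraries. These are bulk samples, so fewer cells of a type and less RNA per cell cannot be told apart.

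Per length of annotated exon, CALM3 and NRGN had the highest values of the 9, followed by CAMK2A and CALM2. The paper traces the average RNA quality number of these samples to pre-spliced RNA. How evenly reads covered the exons was not tested. Levels per length, and the shares and ratios taken from them, therefore hold for these gene models and this RNA. CALM3, on chromosome 6 (47824454 to 47834181, plus strand, genome build Sscrofa10.2), had 2797 ± 502 CPM per kilobase of exon (RPKM, SD, n = 24), and NRGN, on chromosome 9 (57482955 to 57492694, plus strand), had 1928 ± 320 RPKM. CALM3 alone took between 0.435% and 0.905% of all counts in a library. The ranges of CALM3 and NRGN did not overlap in SGA piglets of either diet but overlapped in AGA piglets. CALM2, on chromosome 3 (99567552 to 99582160, minus strand), was at 575 ± 85.7 RPKM, and the ratio of CALM3 to CALM2 per length was 4.89 ± 0.549 (SD, n = 24).

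Among the CaMKII subunits, CAMK2A (chromosome 2, 158335771 to 158396987, minus strand) was at 756 ± 66.8 RPKM and CAMK2B (chromosome 18, 55764825 to 55851601, plus strand) at 396 ± 52.7 RPKM. These are the subunits that predominate in forebrain neurons. CAMK2A made up 62.8% ± 2.81 of the 4 subunits per length, CAMK2B 32.7% ± 2.87, CAMK2G 3.44% ± 0.269 and CAMK2D 1.05% ± 0.196 (SD, n = 24). CAMK2A exceeded CAMK2B 1.94 ± 0.296 times per length. That ratio was highest in AGA CON replicate 2, at 3.01, and lowest in SGA CON replicate 6, at 1.45.

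The remaining genes had lower levels per length than these. CAMK2G was at 41.3 RPKM and CAMK2D at 12.5 RPKM, and their ranges did not overlap each other in any group. PPP3CA (chromosome 8, 128461857 to 128883250, plus strand) was at 6.99 RPKM and CAMK4 (chromosome 2, 120705517 to 120814660, plus strand) at 5.97 RPKM, with overlapping ranges in every group. Between 21 and 141 reads per library lay behind the PPP3CA values and between 22 and 94 behind those of CAMK4, against 27003 to 62394 for CALM3. The exons counted for PPP3CA summed to 1334 bases, so its level per length depends on that gene model. Across the 24 libraries the coefficient of variation was 47% for PPP3CA and 27.5% for CAMK4, and ran from 6.69% for CAMK2G to 17.9% for CALM3 among the other 7 genes.

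**Figure D1:**
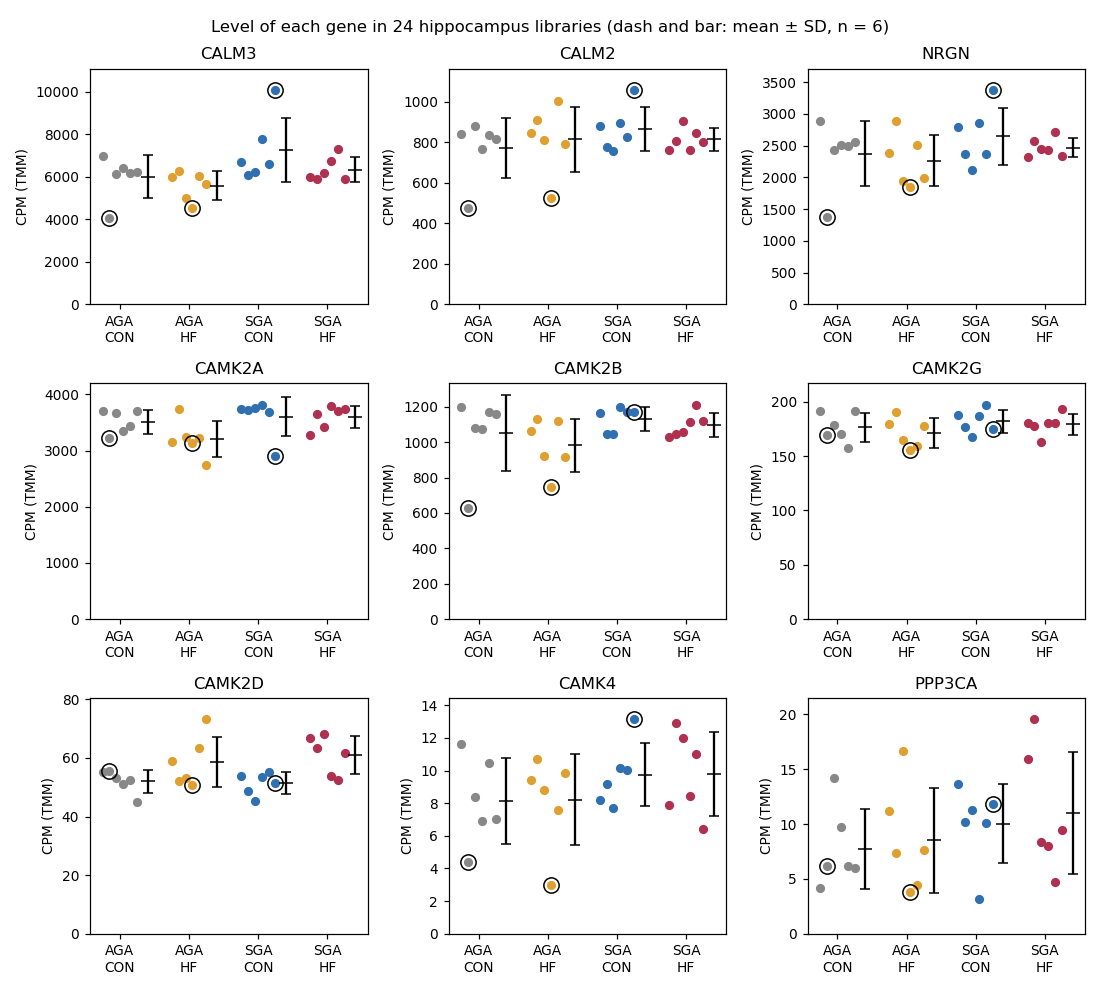
TMM-scaled CPM of each gene (linear axis from 0) in the 24 libraries, 1 point a piglet, with the mean and SD of the 6 piglets of each group beside the points. Black rings mark AGA CON replicate 2, AGA HF replicate 4 and SGA CON replicate 6. In CALM3, CALM2 and NRGN the ringed AGA libraries lie lowest of their groups and the ringed SGA library lies highest of its group, whereas in CAMK2A the ringed SGA library lies lowest of its group at 2903 CPM.

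CALM3 levels were higher in SGA than in AGA piglets. In AGA CON piglets CALM3 ranged from 4066 to 6996 CPM with a median of 6205, and in SGA CON piglets from 6098 to 10073 CPM with a median of 6640. In AGA HF piglets the range was 4521 to 6255 CPM with a median of 5827, and in SGA HF piglets 5895 to 7314 CPM with a median of 6071. The size groups overlapped on both diets, and the SGA CON mean of 7241 ± 1505 CPM (SD, n = 6) was raised by replicate 6, the library at 10073 CPM. Fitted across all genes with sex and 5 surrogate variables, the SGA against AGA difference of CALM3 was 0.13 ± 0.028 (log2 fold change, SE), and it was 0.098 ± 0.038 on CON and 0.17 ± 0.038 on HF.

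CAMK2A showed a difference of the same size from a narrower spread. In AGA CON piglets CAMK2A ranged from 3219 to 3713 CPM with a median of 3552, in SGA CON piglets from 2903 to 3819 CPM with a median of 3733. In AGA HF piglets CAMK2A ranged from 2747 to 3738 CPM with a median of 3189, and in SGA HF piglets from 3281 to 3789 CPM with a median of 3680. Of the SGA CON piglets, 5 lay between 3688 and 3819 CPM and replicate 6 lay below the whole AGA CON range. The fitted SGA against AGA difference of CAMK2A was 0.13 ± 0.030 (log2 fold change, SE), with 0.076 ± 0.041 on CON and 0.19 ± 0.042 on HF.

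Against these, CAMK2B lay just outside the false discovery rate (FDR) of 0.4 that the study used, at 0.11 ± 0.032 (log2 fold change, SE). NRGN was at 0.073 ± 0.039, CAMK4 at 0.066 ± 0.14, CALM2 at 0.045 ± 0.039, CAMK2G at 0.020 ± 0.044, CAMK2D at 0.0024 ± 0.066 and PPP3CA at -0.052 ± 0.16. Of the 9 genes, 8 had a positive size difference with a median of 0.066, beside 49.2% of all genes tested and a median of -0.0023. CALM3 and CAMK2A, whose size difference led to the choice, were the 2 members under this FDR, as 0.478% of all genes were. On HF alone the same 2 lay under it, as did 0.288% of all genes, and on CON alone 0 did, beside 0.129%. Since the choice used these contrasts, nothing is read from the counts.

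**Figure D2:**
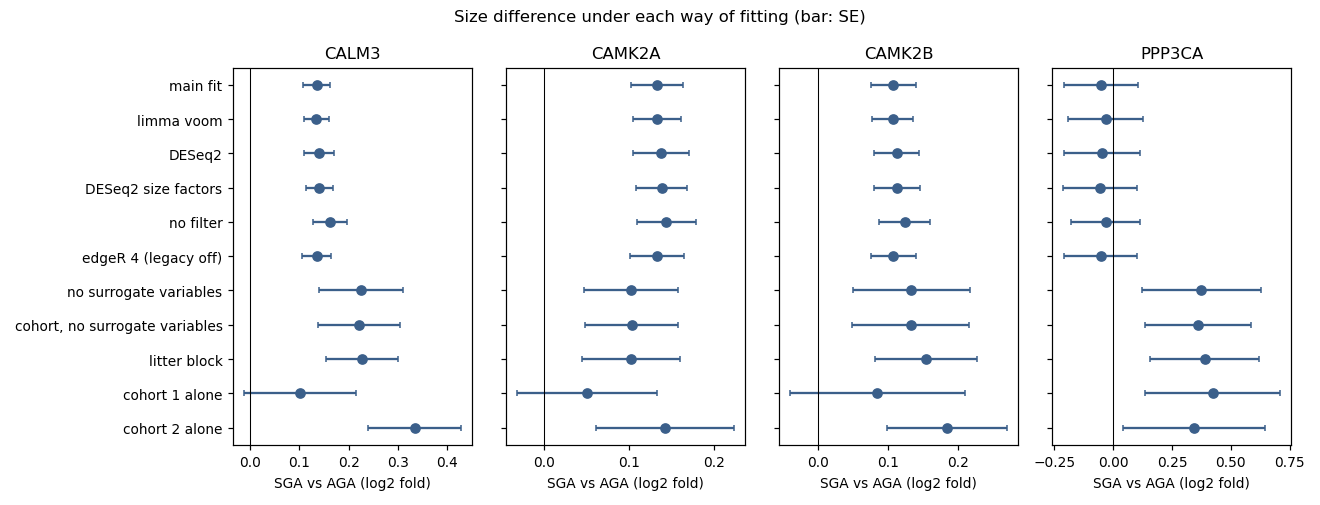
Log2 fold change of SGA against AGA (x axis, positive where SGA was higher, each panel on its own scale) with its SE for CALM3, CAMK2A, CAMK2B and PPP3CA under 11 ways of fitting. CALM3, CAMK2A and CAMK2B stayed above 0 in each, and PPP3CA changed from below 0 to above 0 in the 5 fits at the bottom, which hold no surrogate variables.

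The size differences moved with the way shared variation between libraries was handled. With litter as a block in place of the surrogate variables, which compares each SGA piglet with its littermate, CALM3 was at 0.23 ± 0.073 and CAMK2A at 0.10 ± 0.058 (log2 fold change, SE) and 0 of the 9 lay under FDR 0.4, in a fit where 2.57% of all genes did. PPP3CA stood at -0.052 in the fit with surrogate variables and at 0.39 ± 0.23 with the litter block. The log2 fold change of CALM3 lay between 0.11 and 0.16 when each of the 24 libraries was left out in turn, and its FDR went above 0.4 without AGA CON replicate 1 or SGA HF replicate 5 (0.13 and 0.11). That of CAMK2A lay between 0.11 and 0.18, and its FDR went above 0.4 in 9 of the 24 omissions (AGA CON replicates 1, 4 and 5, AGA HF replicates 5 and 6, SGA CON replicates 1 and 5, and SGA HF replicates 4 and 5).

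Littermates were next compared directly, as the SGA minus AGA difference in log2 CPM in each of the 12 litters. CAMK2A was higher in the SGA piglet in 10 litters, with a mean difference of 0.10 ± 0.20 (SD, n = 12) and a range from -0.36 to 0.45. The litters against this direction were that of CON replicate 6, at -0.36, and that of HF replicate 2, at -0.033. By cohort the CAMK2A mean was 0.061 in the first and 0.14 in the second, with 5 of 6 SGA piglets higher in each. CALM3 was higher in the SGA piglet in 9 litters, by 0.23 ± 0.27 on average, from -0.09 to 0.70. All 6 litters of the second cohort had more CALM3 in the SGA piglet, by 0.33 on average, whereas 3 of 6 did in the first cohort, by 0.13 on average. SGA was higher in at least 10 of 12 litters for 3.81% of all genes tested.

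The other genes were split more evenly. CAMK2B was higher in the SGA piglet in 8 litters, with a mean of 0.15 ± 0.27, and NRGN in 7, with a mean of 0.16 ± 0.29. CALM2, CAMK2D, CAMK2G and CAMK4 were each higher in 7 litters, with means of 0.11, 0.021, 0.057 and 0.30. PPP3CA was higher in the SGA piglet in 9 litters, but its differences ran from -1.53 to 1.65 with a mean of 0.37 ± 0.94. The median over the 9 genes of the mean difference was 0.15, beside 0.0039 over all genes tested.

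**Figure D3:**
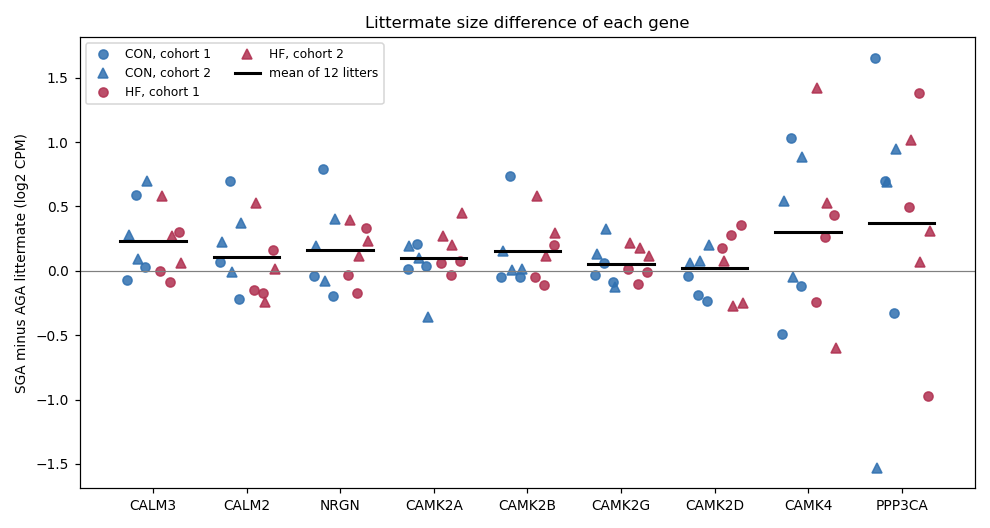
SGA minus AGA littermate difference in log2 CPM (y axis) for each gene, 1 point a litter, blue for CON and red for HF, circles for the first and triangles for the second cohort, with the mean of 12 litters as a black line. CAMK2A lies above 0 in 10 litters and CALM3 in 9, and the points of CAMK4 (SD 0.62) and PPP3CA (SD 0.94) spread wider than the rest (SD 0.14 to 0.30).

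The largest littermate differences of CALM3 were in the litters that held the 3 libraries with outlying excitatory neuron marker sums. They were 0.58 in the litter of AGA CON replicate 2, 0.58 in that of AGA HF replicate 4 and 0.70 in that of SGA CON replicate 6. Without these 3 litters, an omission chosen after their values were seen, the mean of CALM3 was 0.098 ± 0.15 (SD, n = 9) in place of 0.23, with 6 of 9 SGA piglets higher. In the same 9 litters CAMK2B was at 0.057 ± 0.14, NRGN at 0.037 ± 0.19 and CALM2 at -0.036 ± 0.17. CAMK2A kept a mean of 0.12 ± 0.14, with 8 of 9 SGA piglets higher.

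Cell type markers also differed between littermates. The summed excitatory neuron markers (4 of 5 found) were higher in the SGA piglet in 8 of 12 litters, by 0.23 ± 0.36 in log2 (SD), with ranges of 1969 to 4381 CPM in AGA CON against 3864 to 5681 CPM in SGA CON, and of 2530 to 4248 CPM in AGA HF against 3558 to 4372 CPM in SGA HF. The sum of 5 oligodendrocyte markers was lower in the SGA piglet in 11 of 12 litters, by a mean of -0.30 ± 0.30, with 16218 to 20636 CPM in AGA CON against 10944 to 16576 CPM in SGA CON, and 11987 to 22398 CPM in AGA HF against 10210 to 20148 CPM in SGA HF. None of these markers was at 0 in any library. Most of the excitatory neuron sum was SLC17A7, at a mean of 3380 CPM. The other neuron sums differed less between littermates. Markers of any neuron were higher in the SGA piglet in 6 litters (mean 0.071 ± 0.28), of interneurons in 7 (0.084 ± 0.20) and of dentate granule neurons in 6 (-0.010 ± 0.30). Over the 24 libraries, centred on group, CALM3 followed the excitatory neuron sum (r = 0.90), CAMK2A did so weakly (r = 0.20) and PPP3CA did not (r = -0.03). CALM3 also ran with the interneuron (0.73) and any-neuron (0.73) sums and against the endothelial (-0.71) and astrocyte (-0.62) sums. Its r with the remaining sums lay between -0.46 and 0.25. The part of cell makeup in the size differences was not tested.

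The 9 genes fell into sets by how they varied together. Over the 12 litter means centred on diet, the highest of the 36 pairwise correlations were between CALM3 and NRGN (Pearson's r = 0.93), CALM2 and CAMK2B (0.91), CAMK2B and NRGN (0.90), CALM3 and CAMK2B (0.89) and CALM2 and CALM3 (0.83). CALM3 and NRGN stayed together in each cohort, at 0.96 and 0.98. Without the 2 litters farthest from the median of the gene named first, CALM3 with NRGN was at 0.84 and CALM2 with CAMK2B at 0.63. The same omission took CALM2 with CAMK4 from 0.85 to 0.42 and CAMK2B with CAMK4 from 0.71 to 0.29. It took CALM3 with CAMK4 from 0.52 to 0.35 and CAMK4 with NRGN from 0.66 to 0.45. Over all 12 litters CAMK2A was apart from this set, with r of -0.05 to CALM3, 0.19 to CAMK2B and 0.22 to NRGN. Its r to CALM3 turned in sign between cohorts, at 0.44 in the first and -0.40 in the second. With 2 litters left out as above, CALM3 with CAMK2A was at 0.20 and CALM2 with CAMK2A at 0.0055. CAMK2A was then at 0.32 with CAMK2B, 0.40 with NRGN and 0.025 with CAMK4. PPP3CA was at -0.21 to CALM3 over all 12 litters.

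Littermate differences gave a similar picture for the CALM3 set, with 0.91 between CALM2 and NRGN, 0.85 between CALM3 and NRGN and 0.88 between CALM3 and CAMK4. CAMK2A differences ran with those of CAMK2G (r = 0.66) and against those of CAMK2D (r = -0.65). Both relations had the same sign in each cohort (0.76 and 0.66, and -0.79 and -0.57). CAMK2A differences also ran with those of CAMK2B, a gene of the CALM3 set (r = 0.57, by cohort 0.83 and 0.45). With those of CALM3 their r was -0.08, from 0.61 in the first cohort and -0.67 in the second. With 2 litters left out in the same way, CALM3 with CAMK2A was at 0.39 and CALM2 with CAMK2A at -0.22. CAMK2A was then at 0.70 with CAMK2B, 0.57 with NRGN and 0.51 with CAMK4, so how far it lay from the set changed with the litters kept. CAMK2B with CAMK4 went from 0.61 to 0.047, CALM2 with CAMK4 from 0.73 to 0.40 and CALM3 with CAMK4 from 0.88 to 0.82. CAMK4 with NRGN went from 0.67 to 0.82. These are descriptions over 12 litters, and the values of 2 genes in a litter share their libraries, depth and tissue makeup.

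Of all 16325 other genes tested, those most like CALM3 over the 24 libraries, in log2 CPM centred on group, were VAMP2 (r = 0.98), which encodes the synaptic vesicle SNARE synaptobrevin, CDIP1 (0.97) and CELSR2 (0.97), an atypical cadherin. NRGN was at 0.90 by the same measure. The genes most like CAMK2A were BAP1 (r = 0.85), a deubiquitinase, FAAP24 (0.81) and KCNV1 (0.80), a modifier subunit of potassium channels, and the 3 were less like CAMK2A than the top 3 were like CALM3. Looked up after their values were seen, the nearest genes to PPP3CA were EPHA5 (0.92), an ephrin receptor, ATP2B1 (0.92), a calmodulin-regulated calcium pump, and HOMER1 (0.90), a postsynaptic scaffold.

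Diet moved none of the 9 genes past the threshold in edgeR's quasi-likelihood fit, where 0.159% of all genes passed. Of 16326 genes, limma voom called 10 and DESeq2 88 for diet, and 0 of the 9 in either. The 2 genes with an unadjusted p under 0.05, where 7.09% of all genes had one, were CALM3, lower on HF (log2 fold change -0.069 ± 0.028, FDR 0.655), and CAMK2D, higher on HF (0.15 ± 0.067, FDR 0.696). CAMK2A was at -0.027 ± 0.030 and CAMK2B at -0.016 ± 0.032, and the other 5 were between -0.0025 and 0.12. Within AGA piglets CALM3 was at -0.11 ± 0.039 (FDR 0.607) and 0 genes passed, where 0.0674% of all genes did. Within SGA piglets CAMK2D was at 0.19 ± 0.090 (FDR 0.718) and 0 passed, where 0.0919% did. In each of these pairwise comparisons, the gene given was the only one of the 9 with an unadjusted p under 0.05. Of all genes, 6.09% had one in AGA and 5.16% in SGA piglets. Limma voom and DESeq2 called 0 of the 9 in both. Of 16326 genes they called 3 and 58 in AGA and 5 and 31 in SGA piglets.

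CAMK2D, the CaMKII delta subunit that is best known from heart muscle, ranged from 44.8 to 55.6 CPM in AGA piglets (median 52.7) and from 45.2 to 55.3 CPM in SGA piglets (median 52.4) on CON. On HF it ranged from 50.9 to 73.2 CPM in AGA piglets (median 56.0) and from 52.4 to 68.2 CPM in SGA piglets (median 62.5). The CON piglets were close together and the HF piglets reached higher, with overlap. Since both sampled littermates received the same diet, litter means were compared as well, and these were 48.3 to 54.8 CPM on CON and 52.6 to 67.4 CPM on HF. The HF minus CON difference of CAMK2D litter means was 0.20 in log2 CPM (exact two-sided permutation test over 924 splits, p = 0.00649, smallest possible 0.00216). It stayed between 0.17 and 0.24 when each litter was left out, with an exact p from 0.00216 to 0.0152. Fitted in each cohort alone, the CAMK2D difference was 0.22 ± 0.075 in the first and 0.20 ± 0.096 in the second (log2 fold change, SE). Of all genes tested, 4.10% had an exact p under 0.05 and 0.551% one under 0.01 in this comparison, and adjusted over all genes the FDR of CAMK2D was 1.00. Its share of the CaMKII subunits per length was 0.98% ± 0.16 in AGA and 0.92% ± 0.076 in SGA piglets on CON, and 1.19% ± 0.25 in AGA and 1.11% ± 0.17 in SGA piglets on HF (SD, n = 6).

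The other 8 genes had an exact p of at least 0.149 by litter means. CALM3 litter means ranged from 4979 to 7915 CPM on CON and from 5525 to 6652 CPM on HF (difference -0.13 in log2, exact permutation p = 0.214). The lowest CON litter was that of AGA CON replicate 2, and without it the CALM3 difference was -0.21 (exact p = 0.0173, 462 splits). Leaving out the library AGA CON replicate 2 from the fit brought CALM3 (-0.14, FDR 0.242), CAMK2B (-0.13, FDR 0.367) and CAMK2D (0.20, FDR 0.322) past the threshold for diet, and CALM3, CAMK2A, CAMK2B and NRGN, all lower on HF, for diet within AGA piglets (-0.21, -0.16, -0.24 and -0.22). Leaving out SGA HF replicate 3 brought CALM3 past it for diet (-0.09), and CALM3, CAMK2A and CAMK2B for diet within AGA piglets (-0.16, -0.14 and -0.14). That library is not an AGA piglet, so within AGA piglets only the shared parts of the fit changed. These fits count littermates separately for diet, though both sampled littermates received the same one. The share of all genes past the threshold in these refits was not recorded, so nothing is read from these calls. By cohort the CALM3 diet difference was -0.020 ± 0.11 in the first and -0.25 ± 0.094 in the second.

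**Figure D4:**
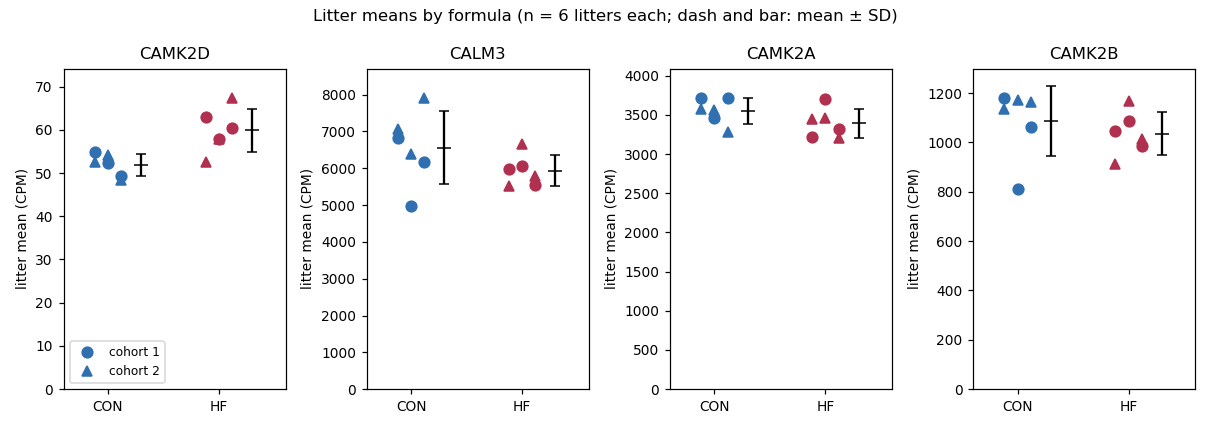
Litter means (CPM, linear axis from 0) of CAMK2D, CALM3, CAMK2A and CAMK2B in 6 CON and 6 HF litters, circles for the first and triangles for the second cohort, with the mean and SD beside the points. CAMK2D is higher in most HF litters (52.6 to 67.4 CPM) than in CON litters (48.3 to 54.8 CPM), and the other 3 overlap broadly.

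No size by diet interaction passed the threshold among the 9 genes by edgeR, limma voom or DESeq2, where 0.049% of all genes passed in edgeR. Limma voom called 1 and DESeq2 17 of 16326 genes, none of them among the 9. NRGN was the 1 gene with an unadjusted p under 0.05, which 4.01% of all genes had (0.16 ± 0.074 in log2, FDR 0.721). CAMK2A was at 0.11 ± 0.057 (FDR 0.747), CAMK2B at 0.10 ± 0.060 (FDR 0.802) and CALM3 at 0.074 ± 0.052 (FDR 0.841). Each of the 9 interaction values changed sign under at least 1 alternative way of fitting, and NRGN and CALM3 were at -0.031 ± 0.15 and -0.080 ± 0.15 with the litter block. In the littermate differences no gene had an exact p under 0.264 between diets, where 4.36% of all genes had one under 0.05. NRGN passed when AGA CON replicate 2 was left out (0.25, FDR 0.322), and CAMK2A when SGA HF replicate 3 was left out (0.19, FDR 0.383). For these refits too the share of all genes was not recorded.

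Male and female litters differed in none of the 9 genes at an FDR under 0.05 by edgeR, limma or DESeq2, where edgeR called 0.0674% of all genes. CALM2 was at -0.13 ± 0.051 in males against females (log2, FDR 0.562) by edgeR. Littermates share a sex, but that fit counts them separately. With litter as a random effect CALM2 was at -0.035 ± 0.10 (FDR 0.979). Between cohorts, for which 1.34% of all genes passed, PPP3CA was lower in the second (-0.67 ± 0.24, FDR 0.198), with 4.14 to 19.6 CPM (median 11.3) in the first and 3.18 to 11.8 CPM (median 6.87) in the second. It passed only when genes with low counts were kept in the fit (FDR 8.5e-05), and had an FDR of 0.119 in DESeq2 and 0.277 with litter as a random effect. The remaining 8 genes had cohort differences between -0.14 and 0.13, and none had an unadjusted p under 0.05.

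Of 48 other genes around calmodulin, in 6 lists, 43 were tested. For size 0 of the 43 passed by edgeR, beside 0.478% of all genes. Of the 43, 30 were positive with a median of 0.041, beside 49.2% of all genes and a median of -0.0023. By list, the positive ones were 4 of 4 other calmodulin genes and small calmodulin-binding proteins, 6 of 9 other CaM kinases, 1 of 2 CaMKII inhibitors, 5 of 7 calcineurin subunits and regulators, 8 of 11 calmodulin-regulated enzymes and pumps and 6 of 10 downstream genes. These signs hold for that fit. In the first list the litter block gave CALML4 -0.40, PCP4L1 -0.024 and MARCKS -0.055, with GAP43 at 0.20. None of the 43 passed in the other contrasts of size and diet either, and an unadjusted p under 0.05 was found for 1 of them for size, 5 for diet and 2 for the interaction, where 10.6% (size), 7.09% (diet) and 4.01% (interaction) of all genes had one.

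With the litter block, 1 of the 43 passed for size, beside 2.57% of all genes, a share near that of the list. This was PPP1R1A, the protein phosphatase inhibitor 1 that calcineurin dephosphorylates, lower in SGA (-0.35, FDR 0.301) and picked out here after its value was seen. CAMK2N1 and CAMK2N2, which encode inhibitors of CaMKII, were at 305 and 185 RPKM, and their size differences were -0.055 and 0.018.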

How the data were processed

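The authors trimmed single-end reads (Trimmomatic 0.33), aligned them to Sscrofa10.2 with STAR 2.5.2a and counted them by strand on exons of Entrez genes with featureCounts (Subread 1.5.0), and they deposited whole-number counts with no normalization. Whether reads that map to several places were counted is not given in the sources used here, so similar coding sequences of the calmodulin genes are a limit. Counts without a gene identifier (0.613% to 1.62% of a library) were left out. Gene symbols came from a table of another assembly, which matched 23036 of 38882 identifiers. No sequence is printed.

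Groups, litters, sex and cohort came from the labels. The 24 libraries were scaled by TMM (factors 0.899 to 1.07) and fitted with edgeR 4.0.16 (quasi-likelihood, R 4.3.3) on 4 groups, sex and 5 surrogate variables (sva 3.50.0, log2 CPM with a prior count of 2). The Benjamini-Hochberg FDR ran over all 7 contrasts, and genes under 0.4 were called. Sex and cohort used an FDR under 0.05 in each contrast, and the cohort fit held no surrogate variables. Limma 3.58.1 (voom) and DESeq2 1.42.0 were alternatives. RPKM is TMM CPM per kilobase of annotated exon. Litter tests were exact, two-sided permutation tests of the difference in means.

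The labels give littermates the same number within a diet. Their deviations from the group means correlated at 0.0144 to 0.329 over the 12 litters. The biological coefficient of variation common to all genes was 0.117. At these depths 3 counts equal 0.323 to 0.499 CPM. Such floors cover counting error only. Each piglet is 1 library. Whether pairs counted here as separate litters shared a sow is not given, and the exact tests take the 12 as independent. The fit was tested on simulated data. The members and lists were chosen with earlier results of these data known. Of the genes in the lists, 2 are not reported here and are left out of the list counts, though not of the fit. By rule, the genes named beyond the 9 were the called genes of the lists and the 3 most like CALM3 and CAMK2A. Cell type markers, the CaMKII inhibitors, PPP1R1A, the genes of the first list and the genes nearest to PPP3CA were named outside it, after their values were seen.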

Additional observations from a re-analysis of the deposited data

Results flagged for a closer look

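Of 36 sets of 6 piglets (9 genes in 4 groups), 6 held a piglet whose gap to the next value, as a share of the range of its group, passed Dixon's 95% critical value. Chance flags about 1 in 20 such sets, and the sets share libraries.

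AGA CON replicate 2 was the low piglet in 4 of these. CALM2 was at 477 CPM there against 766 to 881 CPM in the other 5, CALM3 at 4066 against 6109 to 6996 CPM, CAMK2B at 626 against 1074 to 1200 CPM and NRGN at 1370 against 2432 to 2882 CPM. The same library had the lowest excitatory neuron marker sum and the highest astrocyte sum (12540 CPM) of the 24, and its part in these values was not tested.

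CAMK2A in SGA CON replicate 6 was at 2903 CPM against 3688 to 3819 CPM in the other 5. In this library CALM3 and NRGN were the highest of all 24, as was TBR1, a gene of cortical excitatory neurons, at 133 CPM.

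PPP3CA in SGA CON replicate 4 was at 3.18 CPM against 10.1 to 13.6 CPM in the other 5.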

How the results depend on the processing

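The counts for size describe genes chosen for that difference and support nothing beyond the choice. The count of 2 genes under FDR 0.4 for size, and of 2 for SGA against AGA on HF, was 2 or 3 with limma voom, DESeq2, DESeq2 size factors, no filter, the FDR over each contrast alone and, chosen after seeing the data, edgeR 4 with legacy off. Both counts were 0 with the replicate block of litter, without surrogate variables, with cohort in their place, in cohort 1 alone, in cohort 2 alone and at an FDR under 0.05. The cause was not tested, except that each cohort holds 12 libraries, fitted without surrogate variables, and the last threshold is stricter. Over all genes, 0 of 15841 passed in cohort 1 alone and 0 of 15493 in cohort 2 alone, for size and on HF. A count of 0 there says nothing about the 9. Without surrogate variables 13 of 16326 passed for size and 4 on HF. With cohort in their place 106 and 23 passed, and with the replicate block 420 and 145. Where 2 or 3 of the 9 passed, limma voom called the fewest of all genes (53 and 24). The FDR over each contrast alone called the most (1200 and 235). Leaving out each library gave 0 to 3 genes for size, 0 to 4 on HF, 0 to 3 for diet, 0 to 4 for diet in AGA piglets and 0 to 1 for the interaction. The share of all genes passing in these refits was not recorded, so nothing is read from these counts. Other counts stayed at 0, apart from 1 for cohort (PPP3CA) with no filter on low counts. The replicate block changed no other call among the 9 genes, and of the list genes PPP1R1A passed for size with it (FDR 0.301) and not without it (FDR 0.644).

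Of the 18 diet and interaction values of the 9 genes, none of which had passed, 15 turned in sign under at least 1 alternative, all but those of CALM3, CAMK2A and CAMK2D for diet. For diet, NRGN and CAMK2G turned in 6 of the 10 alternatives that leave out no single library. For the interaction, CALM3 (0.074) was at -0.080 with the replicate block, -0.079 without surrogate variables, -0.085 with cohort in their place, -0.11 in cohort 1 and -0.053 in cohort 2. NRGN (0.16) was at -0.031, -0.020, -0.024 and -0.13 in the first 4 of these. In cohort 1 alone CAMK2A (0.11) was at -0.063 and CAMK2B (0.10) at -0.19, and for diet CAMK2B (-0.016) was at 0.041. The count of genes with an exact p under 0.05 by litter means was 1 for diet and 0 for the interaction with DESeq2 size factors and with values centred on cohort. PPP3CA and CAMK4, at 21 to 141 reads, had the widest standard errors of the 9 for size, 0.16 and 0.14. The part of read number in these was not tested.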
